A study of Pomatostomus ruficeps with 28 samples.

Results

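The CpG sites described here form small patches of low methylation in the blood DNA of chestnut-crowned babbler nestlings, and they were chosen by their measured methylation. A site was selected when its mean methylation over nestlings was below 30%, when at least 3 other sites of the table lay within 500 bp on either side, and when those neighbours also averaged below 30%. Methylation is the percentage of the reads covering a CpG that were read as methylated. The rule found 716 of the 1564780 sites in the table, or 0.0458%. They made up 29.5% of the 2430 sites with a mean below 30%. Of the other low sites, 1423 had neighbours that averaged 30% or more, and 291 had fewer than 3 neighbours. Low methylation of the members and of their surroundings is therefore a description and not a finding.

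Blood was sampled from 19 nestlings raised by groups (parents with additional helpers) and 9 nestlings raised by pairs (parents alone), all of the wild chestnut-crowned babbler, Pomatostomus ruficeps, a cooperatively breeding Australian passerine. Nestlings were 14 to 20 days old, on average 15.9 ± 1.75 days in groups and 15.7 ± 1.58 days in pairs (SD, n = 19 and 9). Some nestlings had been moved to another nest at hatching, which was not used here, and their 28 samples carry 19 natal group codes, so that some share a natal group. Enzymatic methyl sequencing, which converts unmethylated cytosines and leaves methylated ones to be read as cytosine, was the assay. Recovered reads summed over the sites of the table, where a read counts at each of its CpGs, came to between 5266843 and 19539803 per nestling raised by groups and between 8021028 and 17617440 per nestling raised by pairs.

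In vertebrates most CpGs of the genome are methylated, and unmethylated CpGs are typically gathered in dense islands, many of which lie at the start of genes. Methylation of such islands is generally associated with a silent gene, and it is usually copied to both daughter strands when a cell divides. Bird red blood cells keep their nucleus, so that blood DNA of a nestling comes mostly from this cell type.

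The authors removed sites that varied little between nestlings, and the lowest SD over nestlings of any site in the table was 7.41 percentage points. CpGs without methylation in every nestling were thus not in the table, and the members are low sites that also varied. No genome annotation was used here, and whether a patch lies in an exon, an intron or an island, or near a gene, was not analysed. Positions are those of the authors' table, on scaffolds of the chestnut-crowned babbler assembly to which they mapped their reads.

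Chained over gaps of at most 500 bp, the members formed 69 clusters on 67 of the 22694 scaffolds. A cluster held 1 to 61 members, with a median of 7. The distance from the first to the last member ranged between 1 and 699 bp, with a median of 155 bp. Clusters were uneven in size. The 31 clusters with at least 8 members held 542 members, or 75.7% of all, and the 11 clusters with at least 20 members held 322. At the other end, 6 clusters had 1 to 3 members. Members lay close together. The median gap between consecutive members of a cluster was 7 bp, and 60.7% of the 647 gaps were 10 bp or shorter. In 42 clusters every site between the first and the last member was itself a member. The remaining clusters enclosed 141 further sites that did not meet the rule, with a median site mean of 34.8%.

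Some of this closeness came from sites at adjacent positions. Another site lay 1 bp away for 350 members (48.9%), against 38.7% of all sites, and 164 pairs of members were adjacent. Adjacent positions can be the cytosines of a single CpG on its 2 strands, although the authors' methods say that strands were collapsed. In adjacent pairs of members the site means differed by a median of 2.06 points, and recovered reads were equal in 5.06% of the 3539 values that both had. Counted once per adjacent pair, there were 552 members. With adjacent positions not counted as neighbours, an alternative chosen after seeing the data, 696 sites met the rule, of which 693 were members.

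Members were not spread over the assembly like other sites. As a measure of how far a scaffold reaches, the position of its last site in the table was taken. Scaffolds whose last site was below 1000 bp carried 322 members (45.0%), against 1.71% of all sites. Below 10000 bp these shares were 81.8% of members and 7.79% of all sites. Low sites with methylated neighbours lay in between, at 26.2% below 1000 bp and 47.3% below 10000 bp. The largest scaffold with members had its last site at 1269845. A cluster took up every site of its scaffold in 19 cases, and 49 of the 69 clusters held the first or the last site of their scaffold, which on a short scaffold can hardly be avoided. Only VYZT01012931.1 and VYZT01035502.1 held 2 clusters each. The position of a last site is not the length of a scaffold, which was not analysed here.

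**Figure D1:**
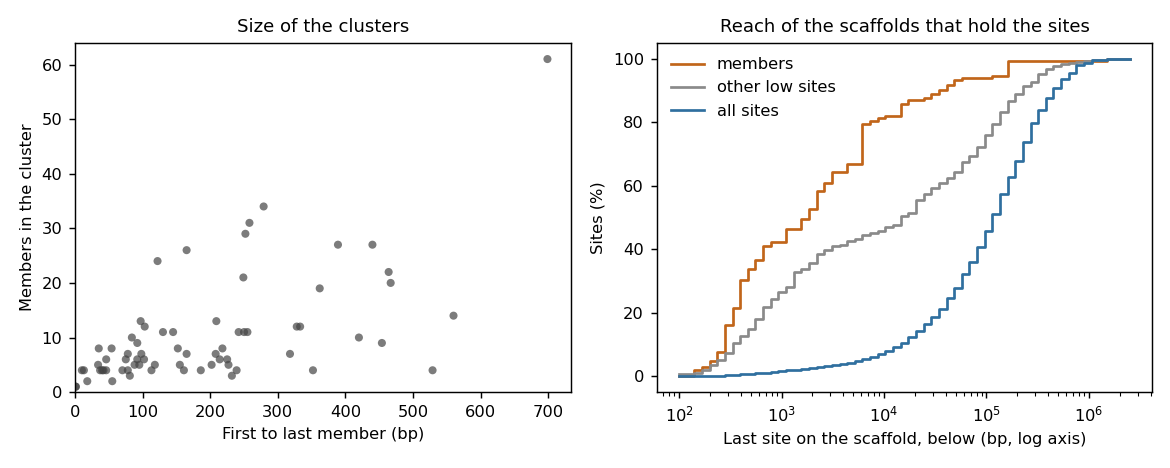
Left, the 69 clusters by the distance from first to last member in bp and by their number of members, each point a cluster. The cluster with 61 members over 699 bp stands at the upper right. Right, the cumulative share of sites in percent by the position of the last site on their scaffold (log axis), for members, for other low sites and for all sites. At 8689 bp the line of the members is at 81.1% and that of all sites at 7.06%.

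The share of members did not follow the density of the table step by step. It was 0.0457% among sites with 3 to 9 others within 500 bp, 0.0446% with 10 to 19, 0.0383% with 20 to 29, 0.0987% with 30 to 39 and 0.0794% with 40 or more. Low sites of any kind made up 0.140%, 0.140%, 0.145%, 0.193% and 0.249% of the sites in these classes. Members had a median of 18 other sites within 500 bp (range 3 to 85), against 12 for all other sites. The median was 17 at low sites with methylated neighbours, which also have at least 3 neighbours. The rule requires neighbours, so that these shares are a description.

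The surroundings of the clusters are described with no test, because sites near a cluster that met the rule were themselves members. Sites other than members at 1 to 250 bp from a cluster had a mean methylation of 33.8% (73 sites at 25 clusters). Further out it was 54.4% up to 500 bp (23 sites at 6 clusters) and 57.8% between 500 and 1000 bp (135 sites at 17 clusters). It was 81.0% between 1000 and 2000 bp (85 sites at 12 clusters), and 57.4% between 2000 and 5000 bp (200 sites at 12 clusters). Most clusters gave no site at these distances, and the distances were therefore read at different clusters.

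Site means of members lay between 3.50% and 29.96%, with a median of 16.8%, against a median of 86.9% for all other sites. Only 5 members were below 5%, 123 were between 5 and 10%, 334 between 10 and 20%, and 254 between 20 and 30%. At the edge of the rule the highest member mean was 29.96%, and 207 sites with low neighbours missed the limit, the lowest of them at 30.12%. Of the low sites with methylated neighbours, 275 had neighbours averaging under 40% and 334 had neighbours averaging over 70%. A further 48 low sites had 2 low neighbours and so missed the rule by 1 neighbour.

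The values behind these means were uneven. Of the 16911 member values, 12.02% were exactly 0, against 0.0764% of the values at all other sites. Zeros made up 10.55% of the values at low sites with methylated neighbours and 20.5% at low sites with too few neighbours. Values above 50% made up 1.21% of member values, and 143 members (19.97%) had at least 1 such value. None of the member values was 100%, which 30.3% of the values elsewhere were. The rule chose low means, so that these contrasts with all other sites are a description. The SD over nestlings of a member had a median of 9.97 points and a range of 7.42 to 23.3, against a median of 10.9 at all other sites. The variance over nestlings was a median of 1.61 times what the recovered reads alone would give by binomial sampling at members. This ratio was 1.58 at low sites with methylated neighbours and 0.901 over all sites other than members. The authors' filter on variance acted on all of these.

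Member values rested on more reads than values elsewhere. Members averaged 26.3 ± 6.24 reads per value, against 9.70 ± 1.74 at all other sites (SD, n = 27 nestlings whose reads were recovered from the deposited coverage). Reads per value were higher at members in 27 of 27 nestlings, with a mean difference of 16.6 (two-sided paired permutation test over nestlings, p = 1e-05, the smallest that 100000 resamples can give). The filter bears on this comparison directly, because members were chosen for low methylation. The test cannot tell a trait of the members from an effect of the filter. Coverage counted 2 times the methylated reads, and the unmethylated reads, each only from 10 upwards, so that a value with few methylated reads needed 10 unmethylated reads to enter the table, while a fully methylated value needed 5 reads. The lowest number of reads behind a member value was 7. Against other low sites members also had more reads, 26.3 ± 6.24 against 23.8 ± 3.87, in 26 of 27 nestlings (mean difference 2.49, paired permutation test, p = 1e-05). The sets differ in methylation, with medians of the site means of 16.8% at members, 22.05% at low sites with methylated neighbours and 13.9% at low sites with too few neighbours, and the part of the filter in this difference was not tested.

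Values were also missing less often at members. On average 15.6 ± 11.1% of members lacked a value in a nestling, against 24.2 ± 15.5% of all other sites (SD, n = 28). The share was lower at members in all but 3 of 28 nestlings (two-sided paired permutation test, mean difference -8.52 points, p = 1e-05). The filter bears on this comparison as well, because it decides which values are missing and members were chosen for low methylation. The test cannot tell a trait of the members from an effect of the filter. Group nestling 79687, alone with deposited read counts, lacked 6.56% of members, 59.8% of all other sites and 7.12% of other low sites. The mean difference was not tested without this nestling. Against other low sites, of which 18.8 ± 11.7% were missing, the difference was -3.19 points, and the share was higher at members in 9 of 28 nestlings (paired permutation test, p = 0.0461). Much of this difference came from pair nestlings 62618, at 10.9% of members against 41.5% of other low sites, and 79563, at 11.7% against 39.1%. The difference was not tested without them. Intervals and tests of this kind cover counting error and the spread between these nestlings only, since reads without molecular identifiers are not independent molecules.

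Averaged over the members, the levels of the 28 nestlings had an SD of 1.98 points, against 1.63 points at all other sites. The nestling level used here is the mean deviation of a nestling from the site means, added to the average of the site means. It allows for which sites are missing, but not for low values that the filter kept out for few reads. At all other sites the level was 88.2% in nestling 79556, which lacked 54.8% of these sites, and 82.1% in nestling 62525, which lacked 5.48%. Nestling 79687 was at 82.8% and lacked 59.8%. The part of missing values in the levels was not tested. Nestlings raised by groups had levels between 13.6% (nestling 79556) and 21.6% (61511), with a median of 17.2%, and nestlings raised by pairs between 13.8% (79676) and 19.3% (79619), with a median of 17.4%. The classes overlapped, and 3 nestlings raised by groups (61511, 79590 and 61525) lay above every nestling raised by pairs. The mean was 17.3 ± 2.17% in groups and 16.9 ± 1.58% in pairs (SD, n = 19 and 9), a difference of 0.33 points, which is smaller than either SD. Its sign was not stable, being -0.06 points without pair nestling 79676 and -0.07 points with means per natal group. Without group nestling 61511, left out after seeing the data, the difference was 0.09 points, and with reads pooled over members it was 0.76 points. No test was made of an average over chosen sites.

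The share of member values at exactly 0 varied more. It ranged between 4.32% and 19.1% in nestlings raised by groups (median 14.1%) and between 5.02% and 16.3% in nestlings raised by pairs (median 12.1%). A value of 0 is more easily met with few reads. Reads per member value ranged between 19.8 and 39.1 in groups and between 23.2 and 47.5 in pairs. The nestling with the largest share of zeros, 79556, had the fewest reads per member value at 19.8, and the part of depth in these shares was not tested.

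**Figure D2:**
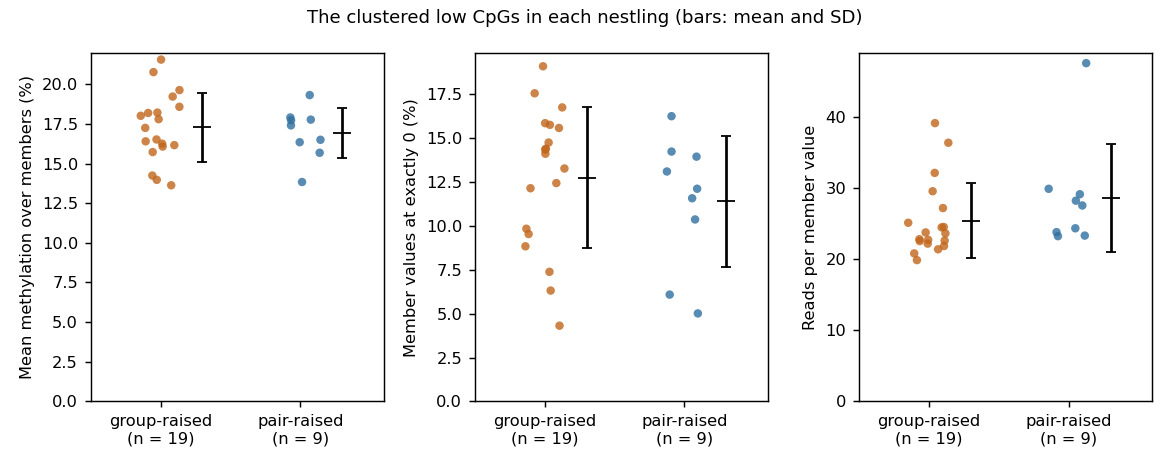
Panels with a point for each nestling, 19 raised by groups on the left and 9 raised by pairs on the right of each panel, and bars for the mean and SD. The left panel gives mean methylation over members in percent, with the classes at 17.3% and 16.9%. The middle panel gives the share of member values at exactly 0 in percent, and the right panel the recovered reads per member value, where pair nestling 62618 stands alone at 47.5.

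Within a cluster, sites went up and down together across nestlings. For pairs of members 2 to 10 bp apart, the median Pearson's r over the nestlings that had both values was 0.67 (527 pairs with at least 15 shared nestlings). It was 0.56 at 11 to 50 bp (1844 pairs), 0.44 above 50 and up to 100 bp (1442 pairs), 0.37 up to 200 bp (1527 pairs) and 0.31 up to 500 bp (993 pairs). At adjacent positions the median was 0.32 (161 pairs). Low sites that were not members gave 0.56 at 2 to 10 bp and 0.20 above 200 bp. Non-members of 30% and above with at least 10 neighbours, of which a random sample of pairs was used, gave 0.25 and 0.02 at these distances. Sites this close are often covered by the same reads, and a read counts at all of its CpGs. These correlations are therefore given without a test.

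Most pairs of clusters showed little of this. Between the levels of 2 clusters with at least 8 members, r over nestlings had a median of 0.02, with 5th and 95th percentiles of -0.32 and 0.38 over 465 pairs of clusters. A set of 4 clusters stood out, and it was picked after its values were seen. These were VYZT01002674.1 (27 members), VYZT01003771.1 (14 members, positions 8 to 567), VYZT01037548.1 (61 members) and VYZT01111251.1 (10 members, positions 8 to 427), which lie on different scaffolds. Each of their 6 pairs had an r between 0.79 and 0.89 over 28 nestlings, and no other of the 465 pairs was above 0.70. The clusters share the nestlings and their depth, and r is given as a description. In the order named, they rested on 52.5, 54.4, 37.4 and 41.0 reads per value. These were the highest depths among clusters with at least 8 members, the next being 34.7 on VYZT01108015.1. The part of depth in these correlations was not tested.

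Some nestlings were low or high in all 4. In the order in which the clusters are named, group nestling 79556 was at 7.15%, 7.78%, 6.07% and 7.67%. Group nestling 79578 was at 9.79%, 7.87%, 8.92% and 10.5%. At the other end, group nestling 61511 was at 36.6%, 36.6%, 32.8% and 32.4%, and group nestling 79555 at 39.1%, 34.5%, 31.8% and 30.6%. Nestlings 79555 and 79556 share the natal group code NFI and were far apart in each of these clusters. On VYZT01002674.1 a gap separated 6 nestlings at 11.35% or lower from all others, at 20.5% or higher. Of these 6, 5 were raised by groups (79594, 79556, 79578, 79532 and 79523) and 1 by a pair (79676). The means of this cluster were 25.1 ± 11.3% in groups and 24.2 ± 8.10% in pairs (SD, n = 19 and 9). Whether the 4 scaffolds share sequence or lie near each other in the genome was not analysed.

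The nestling with the highest mean changed from cluster to cluster. In all, 21 of the 28 nestlings were highest in at least 1 cluster, and the one that was highest most often, group nestling 79590, was so in 9 of the 69 clusters.

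**Figure D3:**
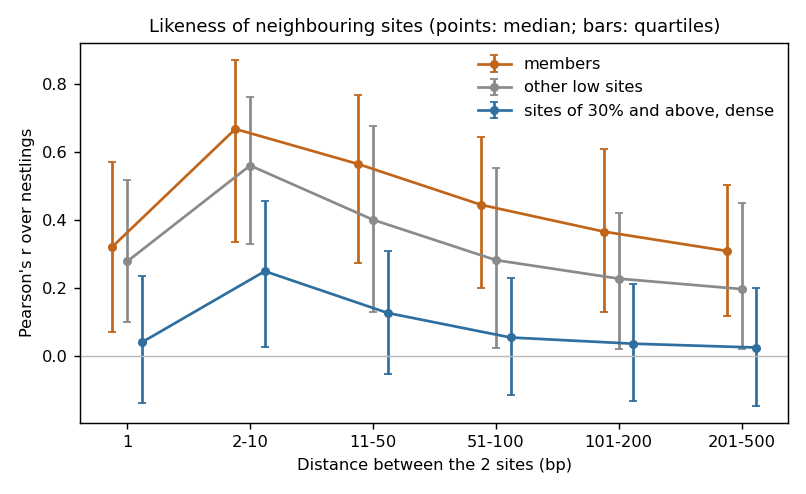
Pearson's r over nestlings between 2 sites (vertical axis) by the distance between them in bp (horizontal axis), for members, for other low sites and for densely placed sites of 30% and above. Points are medians over pairs and bars span the quartiles. Members start at 0.67 at 2 to 10 bp and remain at 0.31 above 200 bp, where sites of 30% and above are at 0.02.

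How far a cluster varied was set beside the binomial variance of a single set of reads that covers all its members. Duplicate reads would make sampling larger than this, and members covered by different reads would make it smaller. The binomial variance is therefore a yardstick and no bound. The variance of the nestling levels was above it in 27 of the 69 clusters and below it in the others, with a median ratio of 0.83 and a range of 0.14 to 3.21. The SD over nestlings of a cluster's level ranged between 2.85 and 16.2 points, with a median of 7.37. The lowest nestling was at exactly 0 in 23 clusters, and the highest was above 40% in 21, some of which rest on 1 or 2 sites of the nestling.

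**Figure D4:**
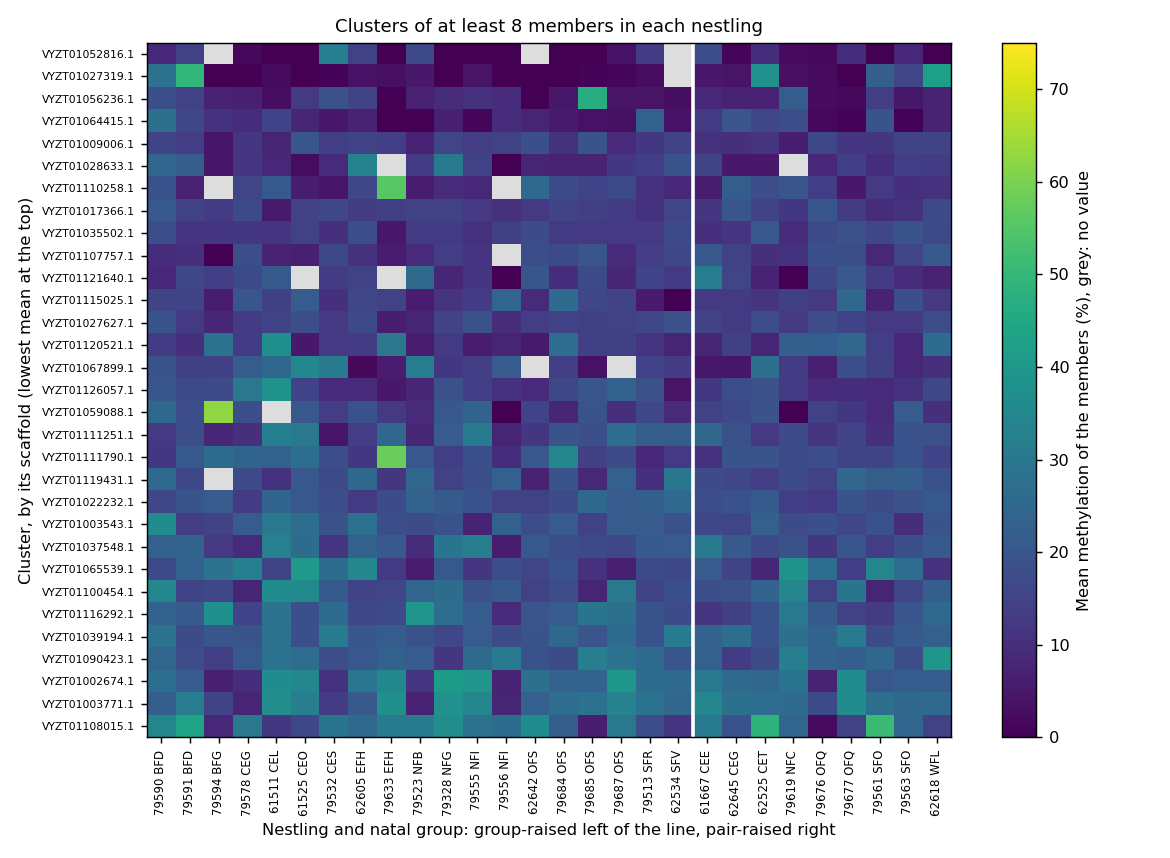
Mean methylation in percent of the members of each of the 31 clusters with at least 8 members (rows, lowest mean at the top) in each nestling (columns, labelled with the natal group code), with the 19 nestlings raised by groups left of the white line and the 9 raised by pairs right of it. Grey cells have no value. Single bright cells, such as group nestling 79685 at 46.7% on VYZT01056236.1, stand in rows that are otherwise dark.

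The largest cluster lay on VYZT01037548.1 between positions 4718 and 5416. It held 61 members among 83 sites, had a mean of 20.3% and rested on 37.4 reads per value. Its mean per nestling was between 6.07% and 32.8% in groups (median 21.1%) and between 11.96% and 30.5% in pairs (median 18.6%). The classes overlapped, with 4 nestlings raised by groups below every nestling raised by pairs, and 3.07% of its values were 0. The next by size was VYZT01056236.1 between 58188 and 58466, with 34 members, every site in this stretch being a member. Its mean was 9.94%, and 31.8% of its values were 0. Here the nestlings lay between 0% and 46.7% in groups (median 7.48%) and between 1.70% and 22.02% in pairs (median 7.47%). A single nestling, 79685, was at 46.7% over 30 of these sites with 14.4 reads per value, and the next highest was pair nestling 79619 at 22.02%, while 3 other nestlings of the same natal group, OFS, were at 0.22%, 4.97% and 4.31%.

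The other clusters named for their size had 27 to 31 members, and VYZT01120521.1, which also held 27, was left out by the order of scaffolds. VYZT01111790.1 between 95 and 352 held 31 members with a mean of 18.1%. Nestlings ranged between 8.47% and 57.8% in groups (median 18.3%) and between 11.1% and 19.6% in pairs (median 16.96%). The 57.8% of group nestling 79633 rested on 2 sites with 9.50 reads per value, and the filter let no low value on fewer than 10 reads enter for this nestling. The next highest was group nestling 79684 at 34.1% over 31 sites. VYZT01108015.1 between 60 and 311 held 29 members with a mean of 25.3%, and it was among the most variable clusters, with an SD of 12.2 points. It ranged between 6.28% and 43.8% in groups (median 28.4%) and between 2.17% and 51.2% in pairs (median 24.4%), the lowest and the highest of all nestlings being raised by pairs. VYZT01002674.1 between 175 and 614 held 27 members with a mean of 24.3% and 52.5 reads per value. Its nestlings ranged between 6.63% and 41.0% in groups (median 26.5%) and between 7.31% and 36.5% in pairs (median 24.8%).

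The lowest clusters with at least 8 members included clusters with most of their values at 0. VYZT01052816.1 between 35980 and 36082 had 12 members, a mean of 6.17% and 55.4% of its values at 0. Its nestlings ranged between 0% and 32.4% in groups (median 0.80%, n = 16) and between 0% and 17.7% in pairs (median 2.08%, n = 9). VYZT01027319.1 between 3525 and 3779 had 11 members, a mean of 9.47% and the largest share of zeros, 61.5%. In this cluster 5 nestlings stood apart. Group nestlings 79591 and 79590, both of natal group BFD, were at 49.6% and 27.9%, and pair nestlings 62618, 62525 and 79561 were at 42.3%, 38.0% and 22.6%. Pair nestling 79563, of the same natal group as 79561, was at 15.7% over 2 sites. All other nestlings with a value were at 5.27% or lower. Its SD of 14.2 points was the largest among clusters with at least 8 members. The median was 1.08% in groups (n = 18) and 4.76% in pairs (n = 9).

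The remaining named clusters are given with their ranges. VYZT01064415.1 between 156 and 483 (12 members, mean 10.3%) ranged between 0% and 27.7% in groups and between 0.63% and 19.7% in pairs. VYZT01009006.1 between 4859 and 5220 (19 members, mean 12.8%) was the steadiest of those named, between 4.34% and 20.2% in groups and between 6.30% and 16.3% in pairs, with an SD of 3.58 points. VYZT01065539.1 between 1404 and 1525 (24 members, mean 20.5%) ranged between 5.68% and 40.7% in groups and between 7.94% and 38.9% in pairs. It was named among the most variable clusters, with an SD of 9.37 points. In each of the 10 named clusters the ranges of the classes overlapped.

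**Figure D5:**
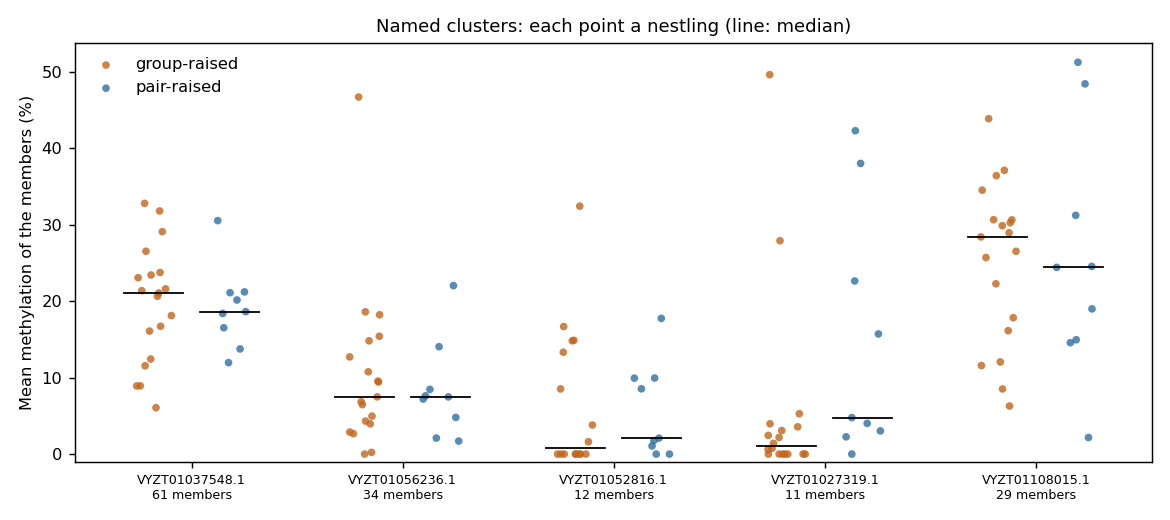
Mean methylation in percent of the members in each nestling (points) for 5 named clusters, with nestlings raised by groups on the left and by pairs on the right of each position and a line at the class median. On VYZT01056236.1 a single point is at 46.7%, and on VYZT01027319.1 most points are near 0 with 5 between 22.6% and 49.6%.

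Nestlings that shared a natal group code were compared with nestlings that did not. There were 12 pairs of nestlings with the same code, in 7 natal groups, and 366 other pairs. Natal group OFS (62642, 79684, 79685 and 79687, all raised by groups) gave more of the pairs with the same code than any other. The mean absolute difference in cluster level was smaller between nestlings with the same code in 20 of the 31 clusters with at least 8 members, with a median over clusters of 7.13 points, against 8.50 points between nestlings with different codes. For the level over all members these differences were 1.61 and 2.27 points. CEG was the only code with nestlings of both carer classes, so that pairs with the same code mostly shared the class as well. The part of carer class in these differences was not tested. The pairs of nestlings overlap, and no test was made.

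Whether members differed between nestlings raised by groups and by pairs was asked of each site by beta regression over the whole table. Its terms were carer class and age, with the natal group code as random intercept. This code stood in for the brood of the authors' model. Because some nestlings were moved at hatching, it does not group all nestlings by the nest that raised them. A site was called when the adjusted p for carer class (Wald test, Benjamini-Hochberg over the 1557233 sites with a fit) was at most 0.01 and the predicted class means were at least 25 points apart. None of the 716 members was called, against 0.0217% of all sites. The 25-point limit alone decided this, because the largest predicted difference among members was 18.97 points (median 2.44). Without that limit 2 members were called, or 0.279%, against 0.574% of all sites. This fit also called unchanged sites in simulated data, as given below. At an unadjusted p below 0.05 there were 38 members in 25 clusters (5.31%), 17 higher and 21 lower in groups, against 8.91% of all sites. The carer term was above 0 at 49.0% of members and at 56.5% of all other sites. The raw difference, group minus pair, was above 0 at 55.7% of members and at 55.6% of all other sites.

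Limma on logit values called 0 members and 0% of all sites at the same adjusted p. It gave 11 members (1.54%) at an unadjusted p below 0.05, against 4.92% of all sites. For a simulation 20000 sites were drawn at random from the whole table, and values were made without a natal group effect. Sites as low as the members were not simulated apart. The 200 changed sites were not drawn from the most methylated sites. They were given a carer term larger in size than any at a member, where it lay between -1.63 and 0.85 on the logit scale. The share of them called is thus no detection rate for members. On these 20000 simulated sites the beta regression gave a p below 0.05 at unchanged sites more often than the nominal 5%. This happened at 8.37% of them with natal group and at 6.80% without it. With natal group it called 248 unchanged sites at an adjusted p of at most 0.05, beside 96.5% of the 200 changed sites. Its adjusted p-values are thus too small on average, and its counts are to be read only beside those over all sites. Members of a cluster share reads and are not independent of each other, so that the share of members called rests on fewer than 716 separate values.

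The 3 members with the smallest p for carer class are described. At position 3563 of VYZT01027319.1, in the cluster described above, methylation was between 0% and 60% in groups (median 0%, n = 12) and between 0% and 55.2% in pairs (median 5.88%, n = 6). Nestlings 79591 and 79590 were at 60% and 54.5%, and 62618 and 62525 at 55.2% and 44.4%, while the other 14 were at 11.8% or lower. The predicted difference was -14.9 points and the adjusted p 8.06e-06 (beta regression, Wald test), against an adjusted p of 0.927 without the natal group and 0.996 with limma. The raw class means were 10.3 ± 22.05% in groups and 18.6 ± 24.9% in pairs.

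The next was position 306 of VYZT01116292.1. Methylation was between 7.14% and 37.5% in groups (median 14.3%, n = 13) and between 5% and 25% in pairs (median 16.7%, n = 7). The raw means differed by -0.70 points, and the predicted means by 0.58 points without the natal group and by 7.30 points with it (adjusted p 0.00077, beta regression, against 0.987 without the natal group and 0.9998 with limma). At both sites the only natal group code with nestlings of both classes was CEG. At the first site its group nestling 79578 was at 0% and its pair nestling 62645 at 11.8%. At the second they were at 17.6% and 10.5%. Both nestlings were part of the fit and give no separate check of its predicted differences.

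The third was position 5331 of VYZT01021335.1, which had a value in all 28 nestlings and 27.0 reads per value. It was between 5% and 30% in groups (median 16.7%) and between 0% and 16.2% in pairs (median 9.09%). The classes overlapped, but 4 of 9 nestlings raised by pairs were below the lowest nestling raised by groups. The means were 17.4 ± 6.21% in groups and 7.84 ± 5.38% in pairs, and the predicted difference was 9.10 points. The adjusted p was 0.0182 with the natal group, 0.0320 without it (beta regression, Wald tests) and 0.996 with limma, so that this site did not pass the threshold in any of the fits.

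Averaging over neighbouring sites gave no call either. The table was divided into tiles of 1000 bp, each with at least 3 sites, and the mean deviation from the site means was tested with limma on carer class and age. Each tile averaged all of its sites, members or not. Of 144203 tiles, 69 held at least 3 members. None of these had an adjusted p of 0.05 or lower, as was the case for 0% of all tiles, and their lowest adjusted p was 0.966. At an unadjusted p below 0.05 there were 3 (4.35%), against 4.96% of all tiles. These were the first tiles of VYZT01095132.1 (-5.27 points in groups relative to pairs), VYZT01099483.1 (5.21 points) and VYZT01116292.1 (6.38 points). Of their sites, 6 of 6, 6 of 8 and 11 of 21 were members. Some tiles with at least 3 members were mostly other sites. The first tile of VYZT01067899.1 had 5 members among 31 sites and a mean of 56.9%. The carer term was above 0 in 52.2% of the tiles with at least 3 members, against 62.3% of all other tiles. Raw means were higher in groups at 55.6% of all sites other than members. Over clusters, the level was higher in groups in 39 and lower in 30, with differences between -9.52 and 8.19 points. The lowest of these was VYZT01027319.1, where the 5 nestlings described above decide the class means (5.60 ± 12.7% in groups and 14.7 ± 16.1% in pairs, SD, n = 18 and 9).

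Age was the other term of the model. With the natal group, 1 member was called for age at an adjusted p of at most 0.01, or 0.140% of members, against 0.463% of all sites. It was position 350 of VYZT01116292.1, where methylation fell with age by 0.51 per day on the logit scale (SE 0.11, adjusted p 0.00129, beta regression, against 0.0324 without the natal group and 0.968 with limma, n = 18 nestlings). There it was between 25.9% and 50% in the 4 nestlings aged 14 days and between 9.09% and 17.6% in the 3 aged 17 days or more. In between, it was from 22.2% to 54.5% at 15 days and from 7.14% to 26.7% at 16 days. The highest and the lowest value of the site thus fell at these middle ages. At an unadjusted p below 0.05 there were 83 members in 34 clusters (11.6%), 55 rising and 28 falling with age, against 8.82% of all sites. With limma there were 17 members (2.37%), against 5.13% of all sites, and 0% of all sites were called at the adjusted p. The share of members was thus above that of all sites with the beta regression and below it with limma.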

How the data were processed

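The data were methylation values of nestling blood DNA. Per the study's methods, the authors trimmed reads with HTStream, mapped them with Bismark, collapsed strands and filtered sites on coverage, presence and variance. The deposited percent values are methylated over all reads of a site in a nestling, with no scaling across nestlings. The deposited coverage is a signal that is not the denominator of these percentages in 27 nestlings, where whole reads were recovered from coverage and percentage within 1e-06. Read counts as deposited by the authors were filled in for 1 nestling only. A further 5 columns with nestling values stayed out. The members, lists and tests were chosen with earlier results of these data known.

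Values were moved inside 0 and 1 for the beta regression, and sites at which it failed were left out. Named clusters are the 5 with most members and, among those of at least 8 members, the 5 of lowest mean and the 5 of largest SD over nestlings. Single sites named are members called for carer class, or else the 3 of smallest p. Other limits, windows, neighbour counts and read minimums, fits without natal group, limma, tiles with natal group as a block and nestlings left out were tried. Fits ran in R 4.3.3 (limma 3.58.1) and in Python 3.11.15 (Numba 0.67.0, SciPy 1.17.1, NumPy 2.4.6).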

Additional observations from a re-analysis of the deposited data

Results flagged for a closer look

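Within the 9 nestlings raised by pairs, 15 quantities were searched for a value far from the others, by the gap to the nearest value as a share of the range, a search that flags about 1 in 20 by chance. It picked out 2. Nestling 62618 had 47.5 reads per member value, and the next highest of the pair-raised nestlings had 29.9. Nestling 61667 was at 30.5% in the cluster of 61 members on VYZT01037548.1, and the next highest was at 21.2%.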

How the results depend on the processing

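The number of members depends on the limit. There were 248 with a limit of 20% and 1341 with a limit of 40%, and between 639 and 746 with other windows, more neighbours, a read minimum, weighted means or adjacent positions left out. Carer class called 2 members without the effect filter and 0 in the other fits. The 1 member called for age with the natal group became 0 without the natal group and 0 with limma. No tile with at least 3 members was called with the natal group as a block or with at least 10 reads per value. None with at least 5 members was called either. The level difference between groups and pairs ranged from -0.07 to 0.76 points over its 7 alternatives. Differences in reads and in missing values kept their direction, but much of the difference in missing values against other low sites came from nestlings 62618 and 79563. The part of the filter in these differences was not tested. Member values rested on a median of 21 reads, which limits how finely a low percentage is read, and the 25-point limit can hardly be met by sites of such low methylation.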

Other observations

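Values far above the rest of a cluster also occurred in clusters outside the naming rule, and those given here were chosen after their values were seen. The highest mean of a nestling in any cluster was 74.1%, in group nestling 79633 on VYZT01064671.1 between 4614 and 4688 (6 members, median of the nestlings 16.1%), and it rested on 2 sites with 7.50 reads per value. Group nestling 79590 was at 64.1% on VYZT01018109.1 over 2 sites with 10 reads per value, and group nestling 79594 was at 62.5% on VYZT01059088.1 at 1 site with 8 reads. In these nestlings a value on fewer than 10 reads entered the table only with at least 5 methylated reads. Low values at such depth were thus kept out by the filter, and its part in these high means was not tested.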
